A study of Mus musculus with 16 samples.

Results

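The 6 intestinal sugar transporter genes Slc5a1, Slc5a4a, Slc5a4b, Slc5a9, Slc2a2 and Slc2a5 were taken by name from the 54532 genes of a mouse RNA-sequencing count table. The table covers 16 differentiated enteroid cultures (epithelium grown from crypts of the jejunum) in 4 groups of 4 cultures from 4 adult mice each, passaged before use. MYO5BΔIEC enteroids carried Vil-CreERT2;Myo5b-flox/flox, in which the villin promoter drives a tamoxifen-inducible Cre in gut epithelium, so that Myo5b is deleted in the culture. MYO5B(G519R) enteroids carried Vil-CreERT2;Myo5b-flox/G519R and keep a single point-mutated Myo5b allele once Cre is active. Both were given 4-OH-tamoxifen at 1 µM for 24 h before the switch to differentiation medium. Compound-1, a synthetic agonist of the lysophosphatidic acid receptor LPAR5, was added at 100 nM for 2 days to a further 4 MYO5BΔIEC cultures, and the untreated ones had PBS as vehicle. The methods describe control cultures as enteroids of the same Vil-CreERT2;Myo5b-flox/flox genotype given ethanol in place of 4-OH-tamoxifen, whereas a figure legend calls them healthy littermates, and the labels name tamoxifen for the mutant groups only. Exposure to tamoxifen and loss of MYO5B therefore cannot be told apart in any comparison with control.

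Absorptive enterocytes take up dietary sugar in steps across opposite faces of the cell. At the brush border SGLT1, encoded by Slc5a1, carries glucose and galactose inward together with sodium, down a gradient that the basolateral sodium pump maintains. Fructose enters through GLUT5 (Slc2a5), and GLUT2 (Slc2a2) lets glucose, galactose and fructose leave toward the blood. Mice have a pair of genes, Slc5a4a and Slc5a4b, in place of the human SGLT3 gene, whose product is known as a glucose sensor rather than a carrier, and SGLT4 (Slc5a9) transports mannose and fructose among other sugars. Myosin Vb, the Myo5b product, is a motor that moves apical membrane cargo to the brush border. The values below are RNA levels, and neither the amount nor the position of any transporter protein was measured in these libraries.

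The pair of Slc5a4 genes lie on chromosome 10 of GRCm38 on opposite strands, and because they resemble each other their sequences bear on how far their counts can be separated. Slc5a4a (ENSMUSG00000020229, 76147451 to 76189265, plus strand) and Slc5a4b (ENSMUSG00000020226, 76057494 to 76110961, minus strand) each have 15 exons in the GENCODE annotation. Their coding sequences were identical at 79.16% of the aligned bases, 1557 of 1967. Against Slc5a1 the identity was 72.55% for Slc5a4a and 73.01% for Slc5a4b. Of the 2006 runs of 50 bases in the Slc5a4a transcript, 1 also occurred in the Slc5a4b transcript, and no run of 100 or 150 bases did. The stretch around that shared run, coding bases 1109 to 1198 of both genes, is shown with the 8 differing bases in capitals:
Slc5a4a: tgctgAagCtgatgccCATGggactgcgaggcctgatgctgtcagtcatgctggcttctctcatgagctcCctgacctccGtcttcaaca
Slc5a4b: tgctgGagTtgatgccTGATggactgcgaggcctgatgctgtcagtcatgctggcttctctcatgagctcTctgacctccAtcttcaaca

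The best local alignment of the pair's start regions ran over 106 columns, of which 70 were identical (66.04%). Such an alignment returns a best block for any pair, and no other promoter pair was aligned. The RNA of both genes fell in MYO5B(G519R) and in treated MYO5BΔIEC enteroids against control, and the part of this likeness in that was not tested. Start sites are those of RefSeq, and for Slc5a4b the whole window lies before the GENCODE start at 76110961. The windows run from 60 bases before the start site to 30 bases from it, with the identical aligned bases in capitals (RefSeq, GRCm38.p6, chr10:76147391-76147480 on the plus strand for Slc5a4a and chr10:76110989-76111078 on the minus strand for Slc5a4b):
Slc5a4a: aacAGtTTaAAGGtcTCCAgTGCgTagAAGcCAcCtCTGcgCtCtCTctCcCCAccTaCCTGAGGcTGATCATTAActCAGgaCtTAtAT
Slc5a4b: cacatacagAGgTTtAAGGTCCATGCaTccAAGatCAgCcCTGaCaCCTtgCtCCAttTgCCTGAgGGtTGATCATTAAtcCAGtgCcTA

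RefSeq promoter entries, each with 250 bases before the start and 50 after, were matched for 5 of the 6 genes, without Slc5a9. Both strands were searched. The TATA box letters TATAAA were in Slc5a4a alone, 188 bases before the start on the minus strand, and in 13.616% of all 32851 promoters. The HNF4 core CAAAGTCCA was in no member and in 0.475% of all promoters. A match or its absence describes these letters in these windows only.

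Between 27804968 and 40101729 reads were counted per culture, so that a count of 0, which allows up to 3 counts, sets a limit of 0.0736 to 0.111 CPM (counts scaled to library size with TMM factors). All 6 genes had counts in every culture, with 5 the lowest, for Slc5a4a. Epithelial markers were high and others low: the 15 villus enterocyte markers summed to 3878 to 16522 CPM over the 16 cultures, the 6 fibroblast markers to at most 0.956 CPM, with Col3a1, Dcn and Lum at 0 throughout, and the 6 immune markers to 4.14 to 11.6 CPM. Control enteroids had 189 ± 29.9 CPM (SD, n = 4) of Myo5b itself, against 128 ± 31.0 CPM for MYO5BΔIEC, 150 ± 17.0 CPM for MYO5B(G519R) and 111 ± 26.8 CPM for treated MYO5BΔIEC enteroids. The fall to the MYO5BΔIEC level, -0.55 in log2 (SE 0.19), missed the edgeR threshold (adjusted p = 0.0503), as did MYO5B(G519R) at -0.33 (SE 0.14, adjusted p = 0.109), while Myo5b was called lower in treated MYO5BΔIEC than in control at -0.77 (SE 0.19, adjusted p = 0.0146), with every treated culture below every control, and counts over the whole gene do not show whether the floxed part was lost. Control culture 1 stood apart from the other 3: its mean correlation with them across genes was 0.969, against 0.984 to 0.986 for each of the others, and its villus enterocyte markers summed to 3878 CPM against 13126 to 16522 CPM. The tests of the transporters and the counts of the gene lists against control are given with and without it where they changed. In these bulk libraries, fewer enterocytes and less RNA per enterocyte cannot be told apart.

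Per gene length, Slc5a1 was the most abundant of the 6 in all groups and Slc5a4a the least. In control enteroids the authors' FPKM values were 185 ± 41.9 (SD, n = 4) for Slc5a1, 32.8 ± 10.2 for Slc2a2 and 29.1 ± 12.3 for Slc2a5. They were 21.7 ± 12.6 for Slc5a4b, 4.53 ± 0.281 for Slc5a9, and Slc5a4a ranged over 0.574 to 2.24 FPKM. The control ranges of Slc2a2, Slc2a5 and Slc5a4b overlapped with their neighbors in this order, and Slc5a4b (4.82 to 35.2 FPKM) also overlapped with Slc5a9 (4.26 to 4.84 FPKM). Slc5a1 lay above, and Slc5a4a below, every value of the neighboring gene in control. The order was the same in MYO5BΔIEC and MYO5B(G519R) enteroids, where Slc5a4b and Slc5a9 again overlapped. In treated MYO5BΔIEC enteroids the means of Slc5a9 (5.29 ± 0.678 FPKM) and Slc5a4b (3.84 ± 1.25 FPKM) changed places, with overlapping ranges.

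**Figure D1:**
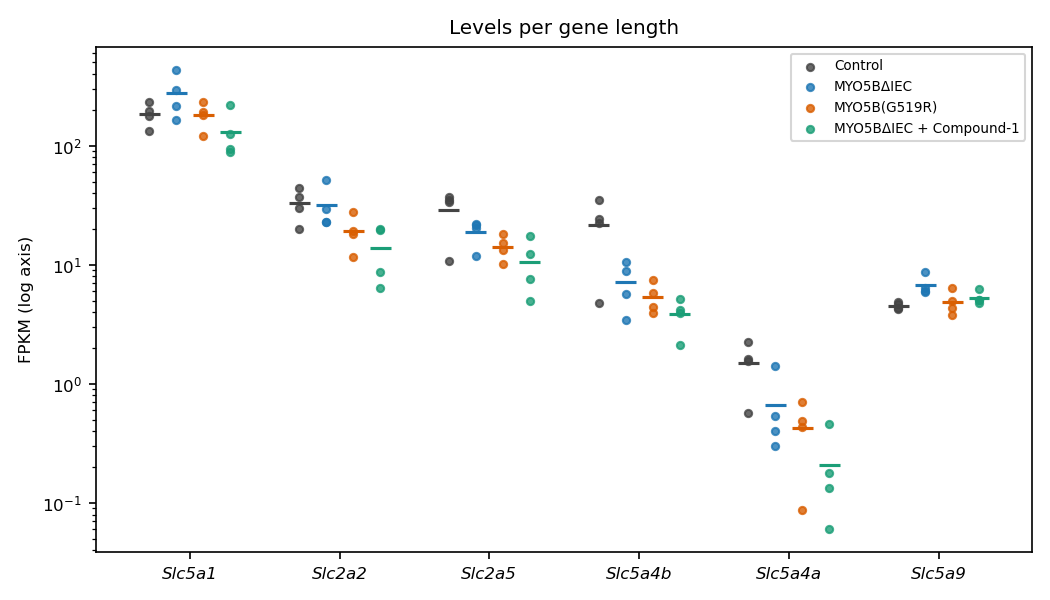
FPKM per culture (log axis) of the 6 sugar transporters, with points for the 4 cultures of each group and bars for the group means. Slc5a1 sits highest in every group, at means of 131 to 276 FPKM, and Slc5a4a lowest, at 2.24 FPKM or less in each culture.

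Slc5a1 (ENSMUSG00000011034, chromosome 5, 33104219 to 33162870, 15 exons) was at 551, 991, 822 and 754 CPM in control cultures 1 to 4 and at 1210, 864, 1789 and 687 CPM in MYO5BΔIEC cultures 1 to 4. It was at 738, 795, 956 and 499 CPM in MYO5B(G519R) and at 925, 521, 382 and 369 CPM in treated MYO5BΔIEC cultures. The highest level was in MYO5BΔIEC culture 3 and the lowest in treated culture 4, and each mutant group overlapped with control. Within groups, SGLT1 RNA had a coefficient of variation of 23.3% in control and 42.7% in MYO5BΔIEC. The control value was above that of Slc5a9 (5.73%) and below those of Slc2a2 (31.6%), Slc2a5 (42.9%), Slc5a4a (46.5%) and Slc5a4b (58.1%).

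Slc5a4b was at 15.6, 116, 79.8 and 75.2 CPM in control and at 33.9, 10.9, 28.5 and 18.6 CPM in MYO5BΔIEC cultures. It was at 14.3, 12.6, 18.8 and 24.3 CPM in MYO5B(G519R) and at 16.9, 13.6, 12.6 and 6.88 CPM in treated cultures. Control cultures 2 to 4 lay above every one of the 12 mutant cultures, and control culture 1 lay among them. Slc5a4a followed at a much lower level, at 1.19, 4.75, 3.43 and 3.30 CPM in control and 1.11, 0.809, 2.94 and 0.630 CPM in MYO5BΔIEC cultures. It was at 1.46, 1.01, 0.897 and 0.181 CPM in MYO5B(G519R) and at 0.972, 0.282, 0.123 and 0.371 CPM in treated cultures. Again control cultures 2 to 4 were the highest, and culture 1 was within the mutant range.

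Slc5a9 (ENSMUSG00000028544, chromosome 4, 111875375 to 111902918, 15 exons) differed from the rest in having the most even control level. It was at 25.3, 23.2, 22.7 and 25.3 CPM in control, a coefficient of variation of 5.73%, and at 31.7, 32.8, 45.1 and 31.2 CPM in MYO5BΔIEC cultures. It was at 25.9, 22.5, 33.0 and 20.1 CPM in MYO5B(G519R) and at 27.0, 25.2, 32.4 and 26.6 CPM in treated cultures. Every MYO5BΔIEC culture was above every control culture, while the other groups overlapped with control, and control culture 1 did not stand apart for this gene.

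Slc2a2 (ENSMUSG00000027690, chromosome 3, 28697903 to 28731359, 11 exons) was at 117, 260, 221 and 180 CPM in control and 171, 131, 297 and 134 CPM in MYO5BΔIEC cultures. It was at 104, 111, 160 and 68.5 CPM in MYO5B(G519R) and 119, 117, 50.2 and 37.5 CPM in treated cultures. The lowest GLUT2 levels were in treated cultures 3 and 4, and control and MYO5BΔIEC covered nearly the same range. Slc2a5 (ENSMUSG00000028976, chromosome 4, 150119283 to 150144169, 14 exons) was at 36.8, 130, 119 and 123 CPM in control and 69.4, 39.4, 74.5 and 76.0 CPM in MYO5BΔIEC cultures. It was at 52.0, 45.2, 61.4 and 35.2 CPM in MYO5B(G519R) and 43.5, 61.2, 25.7 and 17.1 CPM in treated cultures. For GLUT5, control cultures 2 to 4 were above all 12 mutant cultures, and control culture 1 was below 9 of them.

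**Figure D2:**
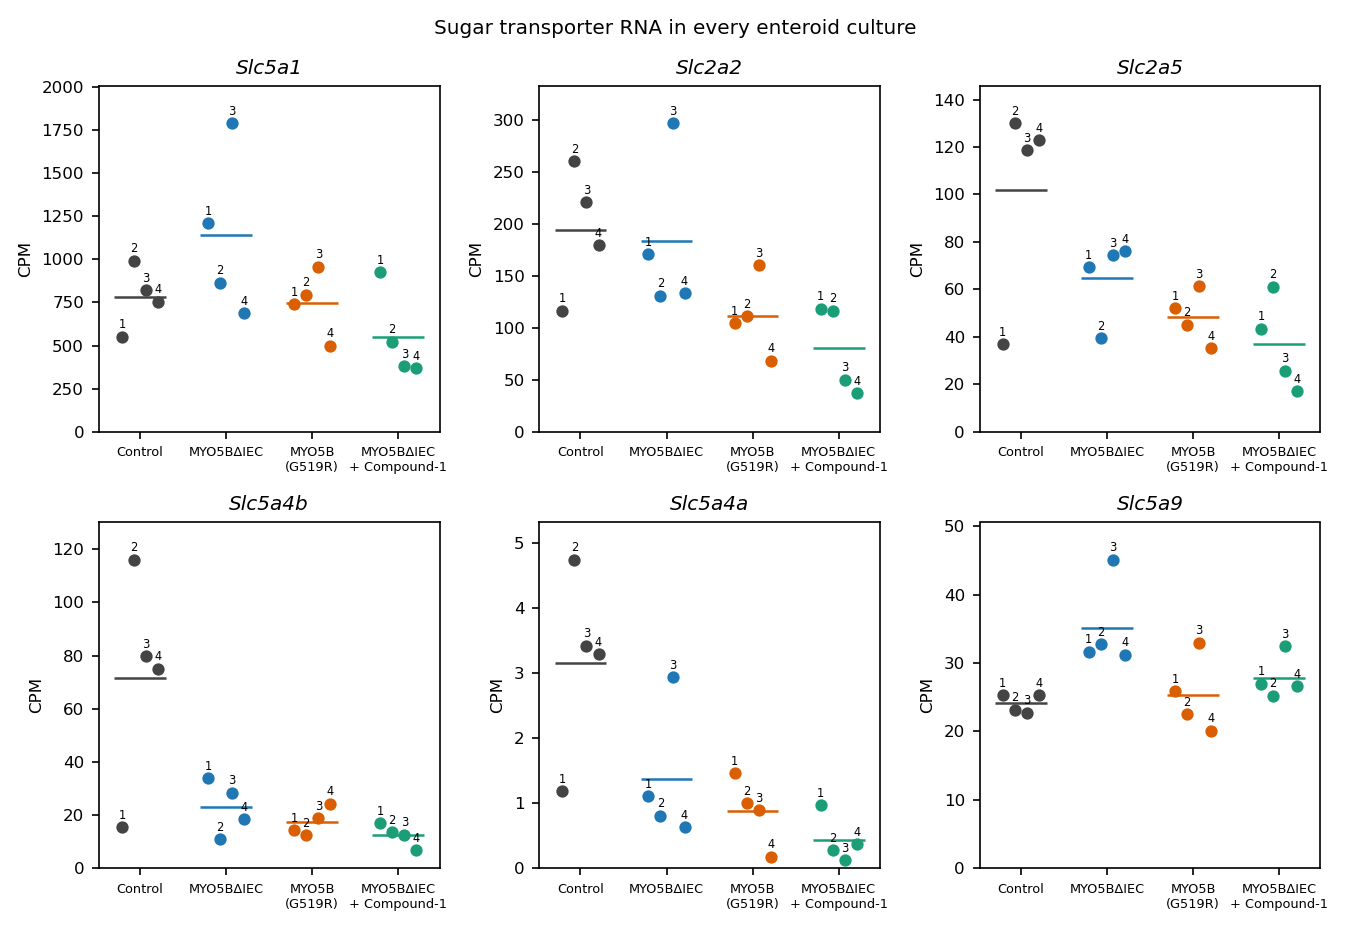
CPM of each sugar transporter in every culture (numbered 1 to 4 as labelled), with lines for group means, on separate axes that start at 0. For Slc5a4b, Slc5a4a and Slc2a5, control culture 1 sits among the mutant cultures while control cultures 2 to 4 sit above them, and for Slc5a9 all MYO5BΔIEC cultures (31.2 to 45.1 CPM) sit above all controls (22.7 to 25.3 CPM).

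The first comparison asked whether loss of MYO5B changed the transporters' RNA within the epithelium itself. In MYO5BΔIEC enteroids Slc5a4b fell 3.11-fold and Slc5a9 rose 1.46-fold, and the other 4 transporters did not pass the test. The Slc5a4b change was -1.64 in log2 (SE 0.51, edgeR adjusted p = 0.0371), from 71.7 ± 41.6 to 23.0 ± 10.3 CPM. That of Slc5a9 was 0.55 (SE 0.15, edgeR adjusted p = 0.0220), from 24.1 ± 1.38 to 35.2 ± 6.66 CPM. So 1 of 6 members was lower, beside 13.8% of the 17951 genes tested, and 1 was higher, beside 13.5%, while 13.0% of all genes had every MYO5BΔIEC culture above every control. The log2 fold changes of the others were 0.55 (SE 0.29) for Slc5a1, -1.21 (SE 0.53) for Slc5a4a, -0.08 (SE 0.30) for Slc2a2 and -0.65 (SE 0.35) for Slc2a5, at adjusted p of 0.112 to 0.868. Without control culture 1, Slc5a4a (-1.49, edgeR adjusted p = 0.0237), Slc5a4b (-1.97, 0.000634), Slc2a5 (-0.93, 0.00280) and Slc5a9 (0.57, 0.0116) all passed. Calls rose over the whole table as well, from 4910 genes with all cultures to 7474 without that one. The Slc5a4b call was lost without control culture 2, 3 or 4 or MYO5BΔIEC culture 2, 3 or 4 (adjusted p = 0.0667 to 0.103), and that of Slc5a9 without control culture 2, 3 or 4 (0.0524 to 0.0724). Without MYO5BΔIEC culture 3 Slc5a4a passed at -1.89 (adjusted p = 0.0229).

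In MYO5B(G519R) enteroids, which asked the same of a point mutation, 3 of the 6 transporters were lower and none was higher, beside 13.7% and 13.1% of the 17829 genes tested. Slc5a4b fell 4.10-fold, to 17.5 ± 5.23 CPM, at -2.04 in log2 (SE 0.49, edgeR adjusted p = 0.0139). Slc5a4a fell 3.55-fold, to 0.887 ± 0.530 CPM, at -1.83 (SE 0.56, edgeR adjusted p = 0.0367). Slc2a5 fell 2.11-fold, from 102 ± 43.8 to 48.4 ± 11.1 CPM, at -1.07 (SE 0.34, edgeR adjusted p = 0.0439). Slc2a2 was at -0.81 (SE 0.29, edgeR adjusted p = 0.0616), with 3 of 4 cultures below the lowest control, and passed without control culture 1 (-0.95, 0.00779) or MYO5B(G519R) culture 3 (-1.04, 0.0379) and by DESeq2 (0.0295). Slc5a1 (-0.06, SE 0.23) and Slc5a9 (0.07, SE 0.16) had adjusted p of 0.876 and 0.777. The Slc5a4b call held whichever culture was left out, at adjusted p of up to 0.0464. That of Slc5a4a was lost without control culture 2, 3 or 4 or MYO5B(G519R) culture 2 or 3 (adjusted p = 0.0768 to 0.0991). That of Slc2a5 was lost without any culture but control culture 1 (adjusted p = 0.0648 to 0.110), and without that culture Slc2a5 was at -1.32 (edgeR adjusted p = 0.000136). Over the whole table, 8146 genes passed without control culture 1, against 4778 with all cultures.

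Compound-1 was then compared with vehicle in MYO5BΔIEC enteroids. All 6 transporters had lower means in treated cultures, and none passed the test, as no gene did at an edgeR adjusted p under 0.05 (0% of 18037 genes, with 1355 at an unadjusted p under 0.05 and 91 by DESeq2). Slc5a1 was at 549 ± 260 against 1138 ± 485 CPM, which is -1.08 in log2 (SE 0.35, unadjusted p = 0.00970 and edgeR adjusted p = 0.550). Slc2a2 was at 80.7 ± 42.9 against 183 ± 78.2 CPM, at -1.21 (SE 0.39, unadjusted p = 0.00949 and edgeR adjusted p = 0.550). For Slc2a2 every treated culture lay below every vehicle culture, as in 1.27% of all genes, and for the other 5 the groups overlapped. The log2 fold changes were -1.69 (SE 0.66) for Slc5a4a, -0.91 (SE 0.35) for Slc5a4b, -0.84 (SE 0.35) for Slc2a5 and -0.37 (SE 0.16) for Slc5a9, at edgeR adjusted p of 0.595 to 0.650. At an unadjusted p under 0.05 all 6 were lower, beside 4.10% of all genes, which is not a call. Several members rose and fell together over the 16 cultures, so counts of members, here or against control, are not separate results. The Pearson r of log2 CPM was 0.89 for Slc2a2 and Slc2a5 and 0.86 for Slc5a1 and Slc2a2. It was -0.21 to 0.46 for Slc5a9 with each of the others. Treated cultures 3 and 4 had lower Slc2a2 and Slc2a5 than all 8 control and vehicle cultures, and treated cultures 1 and 2 did not for Slc2a5. Goblet cell markers moved the other way, with 7 of 7 at a higher fitted level in treated than vehicle cultures, a median log2 fold change of 0.69 against 0.00 for all genes, and none called. They summed to 2565, 2318, 6300 and 4459 CPM in treated cultures 1 to 4 and to 2172 to 2602 CPM in vehicle cultures. The high sums were in the cultures with the lowest Slc2a2 and Slc2a5. Villus enterocyte markers summed to 11226, 9646, 12297 and 10881 CPM in treated cultures 1 to 4, and to 9262 to 15622 CPM with vehicle. Fructose and glucose 6-phosphate metabolism had 7 of 7 genes at a lower fitted level (median -0.74). The brush border disaccharidases had 4 of 5 lower and 1 higher (median -0.58), and none of these was called. The part of any such list in the transporter values was not tested. The direction held for all 6 genes whichever culture was left out, with log2 fold changes of -1.45 to -0.77 for Slc5a1 and -1.46 to -0.87 for Slc2a2.

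Against control, 4 of the 6 transporters were lower in treated MYO5BΔIEC enteroids and none was higher, beside 13.7% lower and 15.7% higher among 17937 genes. Slc5a4a fell 7.32-fold, to 0.437 ± 0.371 CPM, at -2.87 in log2 (SE 0.61, edgeR adjusted p = 0.00848), and every treated culture was below every control, as in 13.6% of all genes. Slc5a4b fell 5.74-fold, to 12.5 ± 4.17 CPM, at -2.52 (SE 0.50, edgeR adjusted p = 0.00705). Slc2a5 fell 2.77-fold, to 36.9 ± 19.6 CPM, at -1.47 (SE 0.44, edgeR adjusted p = 0.0316), and Slc2a2 fell 2.41-fold, at -1.27 (SE 0.38, edgeR adjusted p = 0.0318). Slc5a1 was at -0.50 (SE 0.31) and Slc5a9 at 0.20 (SE 0.14), with adjusted p of 0.238 and 0.298. The Slc5a4a and Slc5a4b calls held whichever culture was left out. The Slc2a2 call was lost without control culture 2, 3 or 4 or treated culture 3 or 4 (adjusted p = 0.0615 to 0.0889), and the Slc2a5 call without control culture 2, 3 or 4 or treated culture 1, 3 or 4 (0.0535 to 0.0916). Without treated culture 1 Slc5a1 passed too, at -0.88 (edgeR adjusted p = 0.0263). The 3 comparisons with control share the same 4 control cultures, so their values are set side by side and not counted as repeats of each other.

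Between the mutant models, all 6 transporters had lower means in MYO5B(G519R) than in MYO5BΔIEC enteroids, and none passed, beside 0.00557% of 17943 genes (1 gene). The log2 fold changes ran from -0.72 (SE 0.29, edgeR adjusted p = 0.838) for Slc2a2 to -0.39 (SE 0.31, edgeR adjusted p = 0.838) for Slc5a4b, with Slc5a9 at -0.47 (SE 0.18, edgeR adjusted p = 0.838). At an unadjusted p under 0.05 there were 772 genes, among them Slc2a2 (0.0309) and Slc5a9 (0.0217). A pass in one model and not in the other, as for Slc5a9 or Slc2a5, was therefore not accompanied by a passed difference between the models.

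**Figure D3:**
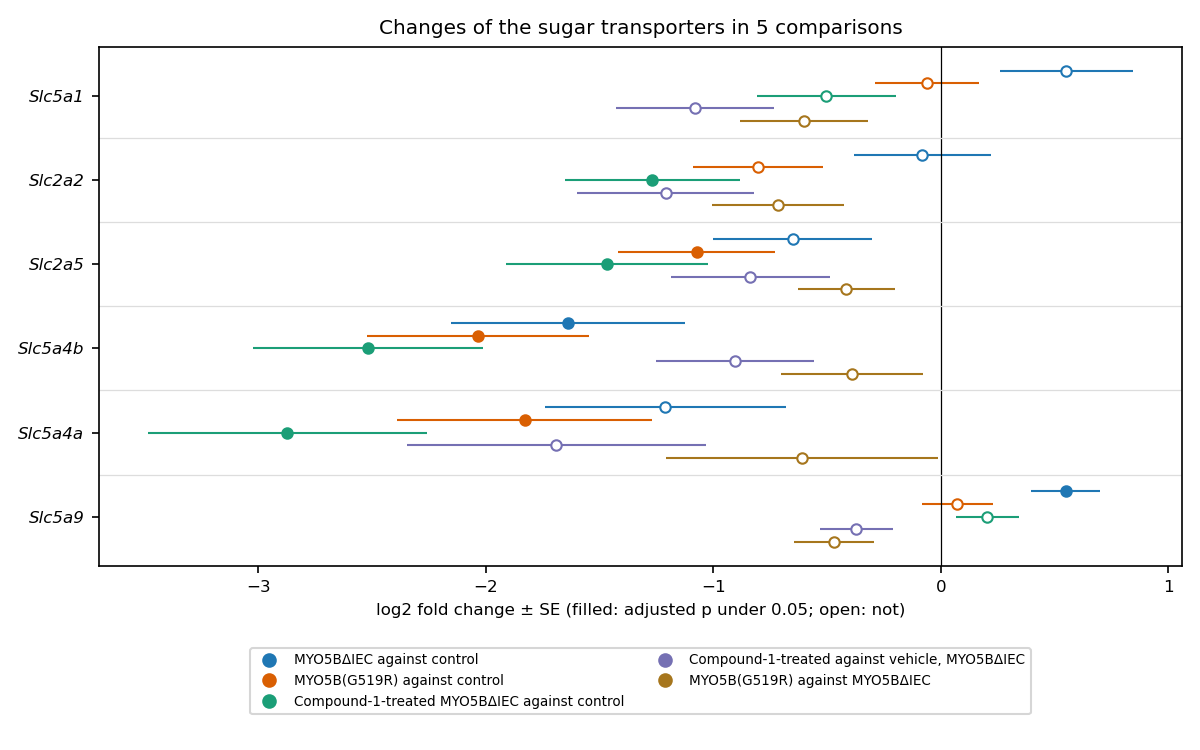
Log2 fold change ± SE of each transporter in 5 comparisons of 4 against 4 cultures, filled where the edgeR adjusted p was under 0.05. Slc5a4b is filled in all 3 comparisons with control (-1.64, -2.04 and -2.52), Slc5a1 in none, and no point is filled for treated against vehicle or between the models.

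**Figure D4:**
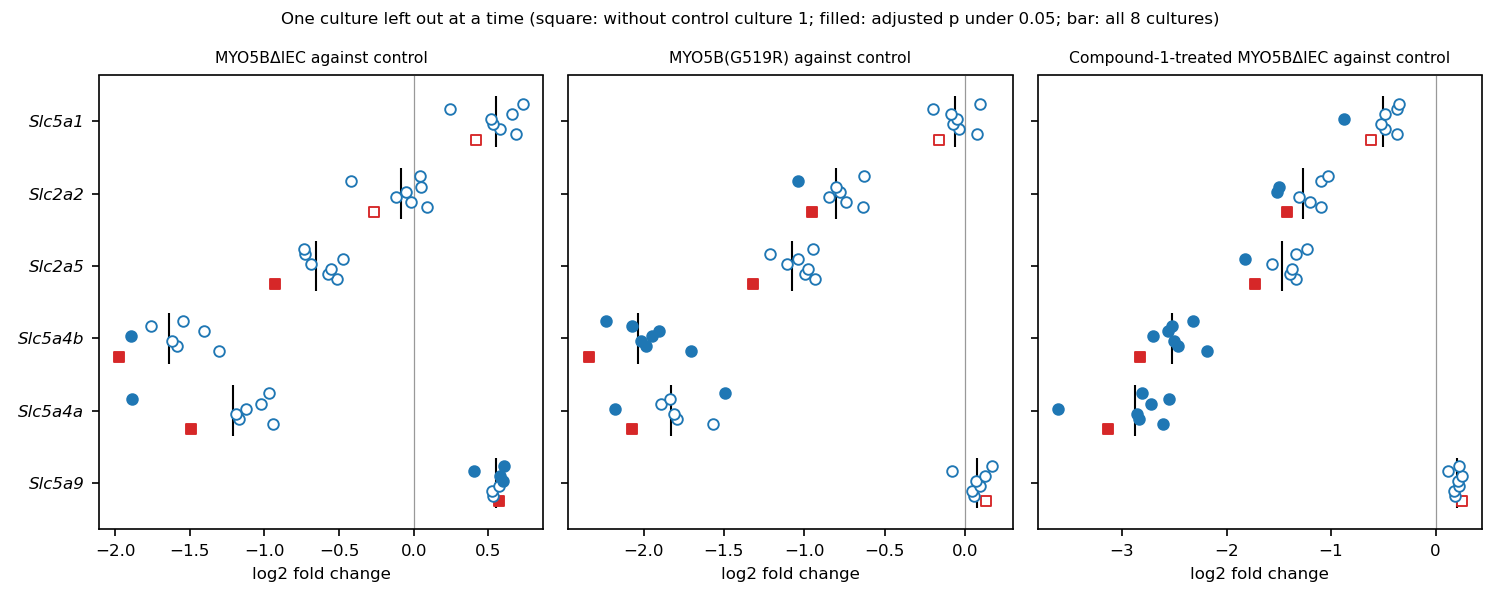
Log2 fold changes in the comparisons with control when 1 of the 8 cultures was left out, with bars for all 8 cultures, squares for control culture 1 left out and filled symbols for an edgeR adjusted p under 0.05. Without control culture 1, Slc5a4b moves from -1.64 to -1.97 in MYO5BΔIEC and Slc2a5 from -1.07 to -1.32 in MYO5B(G519R).

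The split of counts between the Slc5a4 pair was compared because the genes resemble each other, though their transcripts shared only 1 run of 50 bases. An exchange of reads that was equal in every group would not show in this comparison. Slc5a4a took 7.10%, 3.93%, 4.12% and 4.20% of the pair's counts in control and 3.16%, 6.92%, 9.35% and 3.28% in MYO5BΔIEC cultures. It took 9.30%, 7.41%, 4.56% and 0.740% in MYO5B(G519R) and 5.44%, 2.03%, 0.963% and 5.12% in treated cultures. With 254 to 3638 counts of the pair per culture, the 95% Wilson interval was 3.35% to 4.61% in control culture 2 and 3.01% to 8.56% in treated culture 4, for counting error only. The largest of the 5 differences in mean share was -2.29 percentage points, treated against vehicle (exact two-sided permutation test, p = 0.286, adjusted p = 0.786 over 5 comparisons). The other 4 had p of 0.314 to 0.914, where 4 against 4 cultures cannot go below 0.0286.

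The genes whose levels followed the members most closely over the 16 cultures were described by Pearson correlation of log2 CPM among 13544 genes. The cultures share their grouping and control culture 1, so these values carry no p. Slc2a5 followed G6pc (0.94), the glucose 6-phosphatase, and Prrx1 (0.93). Slc2a2 followed Sis (0.95), the sucrase-isomaltase of the brush border, and Prrx1 (0.95). Slc5a1 followed H2-Q1 (0.96) and Nat8f4 (0.95). Slc5a4b followed Ugt2b5 (0.96), Aldh1a1 (0.96) and Gpr89 (0.95), and Slc5a4a followed Hnf4aos (0.96), Zfyve21 (0.95) and Maob (0.95). Slc5a9 had looser company, Atp2b4 (0.93), Slc38a6 (0.90) and Tnnt2 (0.88). G6pc was at 14.7, 53.8, 48.7 and 43.8 CPM in control cultures 1 to 4, with culture 1 the lowest as for Slc2a5. In the treated cultures G6pc was at 11.2, 11.4, 6.18 and 1.94 CPM and Sis at 1926, 1282, 877 and 737 CPM.

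**Figure D5:**
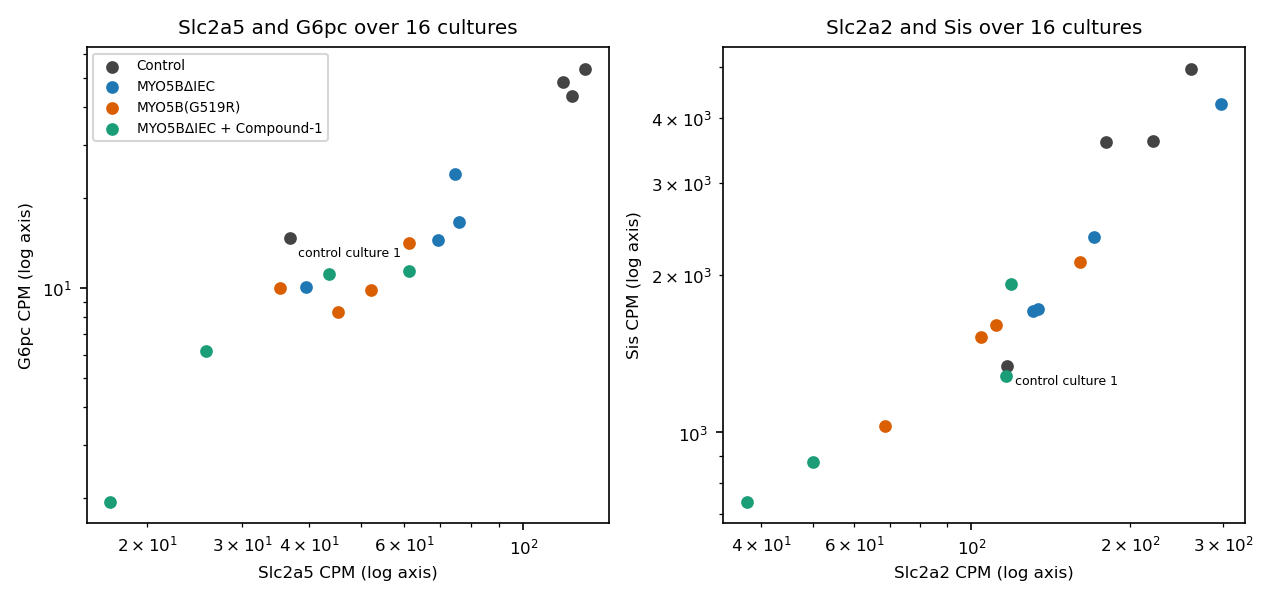
Slc2a5 against G6pc and Slc2a2 against Sis, in CPM on log axes, with a point for each of the 16 cultures. Control culture 1 lies beside mutant cultures on both plots, and treated cultures 3 and 4 lie at the low end.

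Several genes that act on sugar after uptake were lower in the comparisons with control. Of 7 genes for fructose and glucose 6-phosphate metabolism, 3 were lower in MYO5BΔIEC (median log2 fold change -0.78, all genes -0.01), 4 in MYO5B(G519R) (median -1.07, all genes -0.05) and 5 in treated enteroids against control (median -1.41, all genes -0.05), and none was higher. G6pc, which releases free glucose, was at 40.2 ± 17.5 CPM in control and fell in each, at log2 fold changes of -1.30, -1.93 and -2.39 in that order (edgeR adjusted p = 0.0256, 0.00492 and 0.00984). Fbp1, a gluconeogenic phosphatase, was at -1.11, -1.47 and -2.65, passing in each (edgeR adjusted p = 0.0164, 0.00621 and 0.00934). Khk, the ketohexokinase that phosphorylates fructose, was at -0.82 and -0.97 in the mutant models (edgeR adjusted p = 0.132 and 0.0784). It fell by 1.81 in treated enteroids (SE 0.41, edgeR adjusted p = 0.0107). Control cultures 1 to 4 had 101, 427, 394 and 412 CPM of Khk. MYO5BΔIEC cultures had 136 to 227 CPM and MYO5B(G519R) cultures 141 to 189 CPM, all between control culture 1 and the other controls. Over all genes tested, 13.8%, 13.7% and 13.7% were lower and 13.5%, 13.1% and 15.7% higher, which stand beside the list counts below too. Without control culture 1 the counts lower were 5, 6 and 5 of 7. Calls over the whole table then rose from 4910 to 7474, from 4778 to 8146 and from 5275 to 7459 genes. A larger count without that culture therefore does not by itself set a list apart.

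The brush border disaccharidases, which make the sugars the transporters carry, moved in both directions. Sis was at -0.42 (SE 0.40, edgeR adjusted p = 0.466) in MYO5BΔIEC and fell by 1.10 in MYO5B(G519R) (SE 0.36, edgeR adjusted p = 0.0464) and 1.48 in treated enteroids (SE 0.41, edgeR adjusted p = 0.0211). Mgam, the maltase-glucoamylase, rose by 0.98 in MYO5BΔIEC (SE 0.22, edgeR adjusted p = 0.00907) and 0.61 in MYO5B(G519R) (SE 0.17, edgeR adjusted p = 0.0231). Lct, the lactase, was at 1.08, 0.28 and -1.10 and passed in none of the 3 (edgeR adjusted p = 0.0950 to 0.617). Of the 5 genes of this list, 1 was higher in MYO5BΔIEC, 1 higher and 1 lower in MYO5B(G519R), and 1 lower in treated enteroids.

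Other transporters of the same families mostly did not pass. None of 8 other facilitative Slc2 genes passed in either mutant model, and the most abundant, Slc2a1 (GLUT1), was at 0.73 and 0.60. In treated enteroids Slc2a6 (2.52, edgeR adjusted p = 0.0119) and Slc2a1 (1.00, 0.0429) rose and Slc2a7 (-1.64, 0.0231) fell among 7 tested. Of the other sodium-coupled Slc5 genes, none of 6 passed in the mutant models, and in treated enteroids Slc5a6, a vitamin transporter, rose by 0.72 (edgeR adjusted p = 0.0308) among 5 tested. Without control culture 1, other Slc2 genes had 3 higher in MYO5BΔIEC, 2 higher and 1 lower in MYO5B(G519R), and 2 higher and 1 lower in treated enteroids. Other Slc5 genes then had 2 higher, 1 higher, and 1 higher and 1 lower in the same order. Of 4 sodium pump genes tested, 1 was higher in MYO5BΔIEC, where Fxyd3, a modulator of the pump, fell by 0.62 (edgeR adjusted p = 0.0487). Fxyd3 fell by 0.72 (edgeR adjusted p = 0.0243) in MYO5B(G519R), and none of the 4 passed in treated enteroids. The sodium pump counts without control culture 1 were 2 higher and 1 lower, 2 higher and 1 lower, and 1 higher. Among 10 tested regulators of these genes and sweet-sensing genes, Hnf4g fell by 1.06 in MYO5B(G519R) (edgeR adjusted p = 0.0143). The counts of this list were 2 higher in MYO5BΔIEC, 5 higher and 1 lower in MYO5B(G519R), and 4 higher in treated enteroids. Leaving out control culture 1, they were 4 higher and 1 lower, 6 higher and 1 lower, and 6 higher and 1 lower.

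Markers of cell types moved beside these results, and their part in them was not tested. Their counts stand beside 13.1% to 15.7% of all genes called in either direction over the 3 comparisons with control. A count of 1 among 8 markers is near that share. Of 15 villus enterocyte markers, 6 were higher in MYO5BΔIEC, 4 higher in MYO5B(G519R), and 6 higher and 2 lower in treated enteroids, with Anpep and Cdhr5 higher in all 3 comparisons and Fabp1 (-2.38) and Fabp2 (-2.11) lower in the last. Without control culture 1 these counts were 6 higher and 3 lower, 4 higher and 6 lower, and 6 higher and 4 lower. Calls over the whole table rose then as well, to 7474, 8146 and 7459 genes. The summed enterocyte markers ranged over 9262 to 15622 CPM for MYO5BΔIEC, 8243 to 12275 CPM for MYO5B(G519R) and 9646 to 12297 CPM for treated cultures. Of 8 proliferation markers, 5, 4 and 4 were lower, led by Cdk1 and Pcna. Of 8 crypt stem cell markers, Olfm4 was lower and Sox9 higher in each of the 3. Of 7 goblet cell markers, 2 were higher in each, led by Clca1, and 2, 3 and 2 were lower. Of 6 Paneth cell markers, 2, 2 and 1 were lower, with Itln1 in each, and Pou2f3 was lower among 4 tuft cell markers tested, with 3 of them lower in treated enteroids. Of 8 enteroendocrine markers, Chga was higher in each of the 3, with 2, 1 and 1 higher and 0, 2 and 0 lower. When control culture 1 was left out, Paneth cell markers had 5, 6 and 4 lower, crypt stem cell markers 2, 4 and 1 higher, goblet cell markers 3 higher in each with 3, 3 and 2 lower, tuft cell markers 1, 0 and 2 lower, and proliferation markers 1 higher in MYO5B(G519R). The only fibroblast or immune calls were Cd68 in MYO5BΔIEC (6.28 against 2.95 CPM) and Col1a1 in MYO5B(G519R) (0.317 against 0.0562 CPM).

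Markers of gut segment also differed between control and mutant cultures. Of 3 duodenal markers, 3, 1 and 2 were higher, with Cybrd1, the duodenal ferric reductase, at 138 CPM in control and 490, 363 and 371 CPM in MYO5BΔIEC, MYO5B(G519R) and treated enteroids. Of 3 ileal markers, Fgf15 and Slc10a2 were higher in each comparison, though Slc10a2 stayed at 1.81 to 10.6 CPM. Of 2 colonic markers tested, 1, 1 and 2 were lower, with Slc26a3 at 130 CPM in control and 66.9, 54.5 and 70.2 CPM in the other groups, and Car1 was at 0 throughout. With control culture 1 left out, 2 colonic markers were lower in each comparison, 3, 2 and 3 duodenal markers were higher, and 1 ileal marker was lower in each. Sugar transporter RNA is known to vary along the gut, and the part of segment in the differences from control was not tested. The share of counts from mitochondrially encoded genes was 6.41% to 10.4% in control and 3.79% to 6.63% in the 12 mutant cultures. Leaving these genes out of the library sizes changed no call of a transporter. This could not decide whether the share matters, because TMM factors were refitted over the same genes and take up most of such a change.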

How the data were processed

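RNA from 16 enteroid cultures (4 in each of 4 groups, as the labels assign them) was poly-A selected and sequenced in pairs. The authors aligned reads to GRCm38/mm10 with STAR 2.5, parsed alignments with TopHat and counted reads per gene with HTSeq 0.6.1; the strand setting and the treatment of reads matching several genes are not given in the sources used here. The deposited counts are raw, and the deposited FPKM values are the authors' counts per gene length and library size. Groups were compared in pairs with edgeR 4.0.16 (quasi-likelihood F test, TMM, genes with at least 10 counts in 2 libraries, Benjamini-Hochberg over all genes, threshold 0.05) in R 4.3.3. CPM used TMM factors over all 16 libraries, and levels between genes were compared in FPKM only. Depth was 27804968 to 40101729 counts per culture, and intervals cover counting error only. Alternatives were DESeq2 1.42.0 and its size factors, other filters, library sizes without mitochondrial genes, all groups in one fit, a replicate block, a length offset, limma 3.58.1 on log2 values of the deposited FPKM, the Slc5a4 pair summed, and each culture left out. Counts of gene lists without control culture 1 were added after seeing the data. The count tests were tested on simulated data. The members and lists were chosen with earlier results of these data known. Named genes are the members, the 3 genes most correlated with each (mean of at least 1 CPM), and from each list up to 3 called genes with the largest change, other genes of a list being named after their values were seen. Sequences were read from RefSeq (GRCm38.p6) and GENCODE M21 transcripts and aligned with biopython 1.88. Permutation tests were run in R, Wilson intervals used scipy 1.17.1, and figures matplotlib 3.10.9. Some genes that these rules name are not reported here.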

Additional observations from a re-analysis of the deposited data

Results flagged for a closer look

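Among 28 tests of 4 cultures each (6 CPM levels and the Slc5a4a share in 4 groups), 3 found a culture far from the other 3, by a gap to the nearest value over Dixon's 95% limit. Chance gives about 1 in 20 such tests. Slc2a5 was at 36.8 CPM in control culture 1, against 119 to 130 CPM in the other controls. Slc5a9 was at 45.1 CPM in MYO5BΔIEC culture 3, against 31.2 to 32.8 CPM in the others, and its call held without that culture (log2 fold change 0.40, edgeR adjusted p = 0.0448). Slc5a4a took 7.10% of the Slc5a4 counts in control culture 1, against 3.93% to 4.20% in the other controls.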

How the results depend on the processing

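Over 12 alternatives and 8 left-out cultures per comparison, 512 of 580 gene results kept their direction and their side of the threshold. These include treated against vehicle and between the models, where no transporter passed in any setting, so the number overstates how firm the calls were. Slc5a4b in MYO5BΔIEC and Slc2a5 in MYO5B(G519R) against control passed in 2 and 1 of the 8 left-out fits. Of 2 transporters called in MYO5BΔIEC against control, 0 passed with a replicate block, 1 with a gene length offset, 0 with both, 1 by limma on log2(FPKM + 1) and 1 by limma on log2(FPKM + 0.1), and 0 to 4 when 1 culture was left out. The corresponding ranges on leaving out 1 culture were 1 to 4 in MYO5B(G519R), where 3 passed over all cultures, and 2 to 4 in treated enteroids against control, where 4 did, and 0 for treated against vehicle and between the models, where the 12 alternatives also gave 0. The replicate block was a check only, in view of correlations across genes of log2 CPM after each group's mean was subtracted. On this measure same-numbered cultures correlated at -0.193 to 0.203 in the 4 comparisons with control or with treatment. Between the models they correlated at 0.0574 to 0.524, with 3 of 4 closest to their own number, a hint from the data and not from the design. Directions turned for values that had not passed. Slc2a2 in MYO5BΔIEC was at 0.092, 0.048 and 0.045 without control culture 2 or MYO5BΔIEC culture 2 or 4, in a range of -0.418 to 0.092. In MYO5B(G519R) against control, Slc5a9 was at -0.031 with the length offset and -0.051 with block and offset, and ran from -0.080 to 0.169 when 1 culture was left out, negative without MYO5B(G519R) culture 3. Slc5a1 ran from -0.203 to 0.091 there, positive without control culture 2 (0.076) or MYO5B(G519R) culture 4. Slc5a4a between the models ran from -0.956 to 0.073, positive without MYO5BΔIEC culture 3. The Slc5a4a share difference ran, in percentage points, from -0.384 to 1.68 in MYO5BΔIEC and -0.601 to 2.25 in MYO5B(G519R) against control, and from -1.44 to 1.41 between the models, with 0.138, 0.241 and 1.05 among the turned values. With a pseudocount of 1 FPKM the Slc5a4a changes shrank to -0.58, -0.77 and -1.01 in the 3 comparisons with control. Genes called over the whole table ran from 2963 to 7474, 2880 to 8146 and 2957 to 7459 in those comparisons when 1 culture was left out. DESeq2 called 91 genes for treated against vehicle and 4 between the models, and the test without a filter 12 and 2. The cause of these differences was not tested.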
